A study of Mus musculus with 6 samples.

Results

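The intestinal identity factors are 9 transcription factor genes that specify and maintain the epithelium of the small intestine, namely Cdx1, Cdx2, Hnf4a, Hnf4g, Gata4, Gata6, Elf3, Isx and Nr5a2. They were chosen by name as genes with an array row annotated to that symbol alone. All 9 were measured, each by 1 row, among 19938 genes named in this way. Total RNA of epithelial cell preparations from mouse jejunum was hybridised to Affymetrix gene arrays. The 3 control animals carried R26-M2rtTA, a doxycycline-dependent activator named after the broadly active Rosa26 locus, and the 3 transgenic animals carried it together with a Musashi transgene under the TRE promoter, which that activator switches on. All 6 animals had received doxycycline in the drinking water for 24 h, so the groups differ by the transgene and share the drug and the activator. The series text calls the transgene Msi1, while the genotype label of the transgenic samples reads TRE-MSI2. The labels give no age, sex, strain, litter or scan batch.

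Intestinal identity rests on a small set of factors that bind the same enhancers. The caudal homeobox proteins CDX1 and CDX2 set intestinal against gastric fate, the nuclear receptors HNF4A and HNF4G drive enterocyte genes of lipid absorption and the brush border, and the zinc finger proteins GATA4 and GATA6 act in crypts and villi, with GATA4 known for keeping jejunal genes on and ileal genes off. ELF3 is an ETS factor of differentiating epithelium, ISX is a homeobox repressor of carotenoid and lipid uptake genes, and NR5A2 (LRH-1) is a nuclear receptor of crypt renewal and local steroid synthesis.

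Values are log2 signals, so a difference of 1 is a doubling, and levels are compared between arrays for the same gene only. Array medians over 35399 rows lay between 6.27 and 6.34. Msi1 had log2 signals of 6.95, 7.03 and 6.86 on the controls and 12.51, 12.68 and 12.62 on the transgenic arrays, which separates the groups as labelled, while Msi2 was no higher on any transgenic array. Transgenic replicate 1 stood apart. It correlated with the other arrays across genes at 0.922 to 0.951, against 0.995 to 0.996 among controls and 0.996 between transgenic replicates 2 and 3, and results are therefore given with and without it. A gene was called at a limma adjusted p under 0.05, with Benjamini-Hochberg adjustment over all genes. By this rule 2368 genes (11.9%) were called with all arrays and 5700 (28.6%) without transgenic replicate 1. The preparations held signal of epithelial markers (Epcam, Cdh1, Vil1 and others), whose list median was 12.01 to 12.17 on the controls and 11.80 to 12.11 on the transgenic arrays. Lymphocyte markers had medians of 7.75 to 8.09 and 5.42 to 7.29.

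None of the 9 identity factors was called in the transgenic epithelium, while 11.9% of all genes were. When the dimmest 40% of genes were left out, all 9 stayed and 0 were called, against 19.6% of the genes kept. With limma, 2 of the 9 had an unadjusted p under 0.05, Cdx1 and Cdx2, against 25.0% of all genes, and limma with trended and robust variances also called 0, against 9.91% of all genes. The median difference of the 9 factors was -0.15 with all arrays, 0.06 without transgenic replicate 1 and 0.00099 with array weights, so its sign rests on that array, and that of all genes was -0.04 with all arrays. Their median size of difference was 0.16 against 0.16 for all genes. The median distance from the control mean was 0.64 against 0.24 on transgenic replicate 1. For the mean of transgenic replicates 2 and 3 it was 0.22 against 0.15. The groups did not overlap for 3 of the 9, Cdx1, Cdx2 and Gata4, all lower in the transgenic arrays, and for 34.2% of all genes in either direction. In the lower direction alone the share of all genes was 18.2%. Transgenic replicate 1 was the lowest of the 6 arrays for 7 of the 9, all but Cdx1 and Nr5a2, and the share over all genes was not counted. Without this array 3 of the 9 were called, Cdx1 and Cdx2 lower and Isx higher, a share that is near the 28.6% called among all genes in the same fit. With array weights 2 of the 9 were called, Cdx1 and Cdx2, against 28.9% of all genes, and at a threshold of 0.1 only Cdx2 passed, against 17.1%. These counts describe the list, and a difference between it and other genes was not tested. In whole epithelial preparations fewer cells of a type and less RNA per cell cannot be told apart.

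**Figure D1:**
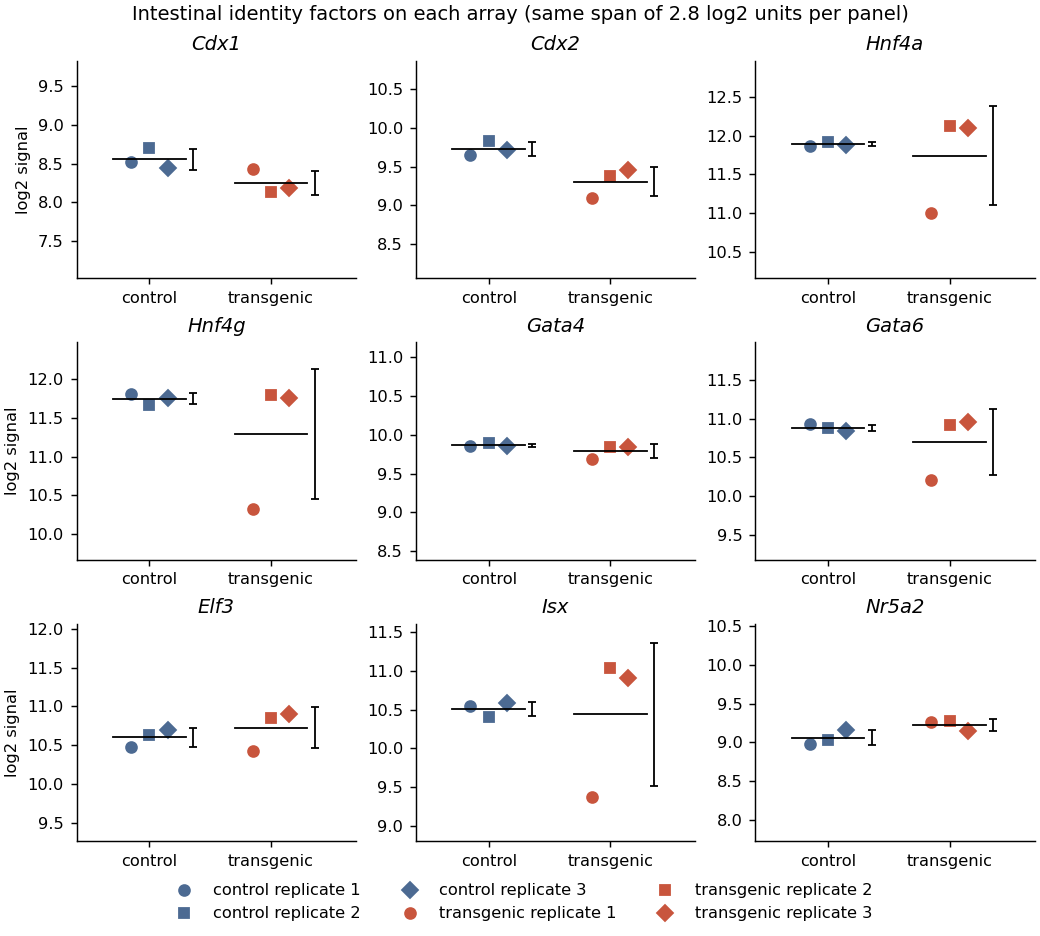
Log2 signal of each identity factor (y axis, the same span in each panel) on the 3 control and 3 transgenic arrays, with the group mean as a line and the SD over 3 arrays as a bar beside it. Transgenic replicate 1 (circle) lies far below all other arrays for Hnf4a, Hnf4g, Gata6 and Isx, while both Cdx genes are lower on all transgenic arrays.

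The start regions of Cdx2, Isx and Hnf4a are shown because Cdx2 was lower on all 3 transgenic arrays, while Isx and Hnf4a were low on transgenic replicate 1 and high on replicates 2 and 3. Start regions (RefSeq, GRCm38.p6) were at hand for 5 of the 9 members, with 7 starts, and not for Cdx1, Hnf4g, Gata4 and Gata6. The bases before the start were searched on both strands for short core motifs: TTTATG (CDX), AGATAA for GATA factors, CAAAGTC (HNF4), GTTAAT (HNF1), CAAGGTC (NR5A2) and AGGAAGT (ETS). Capitals mark matches, and no match overlapped another in the sequences printed. Among 32851 start regions of 250 bases these motifs occurred in 10.8%, 9.99%, 3.84%, 6.43%, 3.32% and 7.69%, in that order. The Cdx2 window (chr5:147307250-147307499, minus strand) held 1 HNF1 match, the Isx window (chr8:74872924-74873173, plus strand) 1 ETS match, and the window of the downstream Hnf4a start (chr2:163546905-163547154, plus strand) 2 HNF1 matches. Of the starts not printed, the upstream Hnf4a window (chr2:163506607-163506810, 204 bases) held 1 GATA match. An Nr5a2 window (chr1:136960449-136960698) held 3 matches, to GATA and HNF1. The other Nr5a2 window and the Elf3 window held 0. A match is a description of the letters and not a bound site.
Cdx2: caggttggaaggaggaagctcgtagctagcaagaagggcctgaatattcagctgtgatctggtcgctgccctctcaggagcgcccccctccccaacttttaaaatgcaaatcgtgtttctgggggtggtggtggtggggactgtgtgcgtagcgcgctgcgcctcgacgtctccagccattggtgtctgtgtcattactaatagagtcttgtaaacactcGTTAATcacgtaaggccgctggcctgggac
Isx: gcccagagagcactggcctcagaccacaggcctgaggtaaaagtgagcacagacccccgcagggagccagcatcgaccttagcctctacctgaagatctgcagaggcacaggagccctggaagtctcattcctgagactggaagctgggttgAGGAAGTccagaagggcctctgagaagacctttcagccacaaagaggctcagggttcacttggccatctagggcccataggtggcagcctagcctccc
Hnf4a: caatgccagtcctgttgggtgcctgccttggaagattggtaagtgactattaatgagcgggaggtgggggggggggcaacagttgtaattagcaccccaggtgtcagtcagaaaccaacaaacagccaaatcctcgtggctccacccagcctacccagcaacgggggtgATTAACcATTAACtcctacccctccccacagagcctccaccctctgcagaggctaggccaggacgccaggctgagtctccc

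The caudal factors were the members with the smallest p. Cdx2 (row 10535771, chromosome 5), which is required for intestinal fate, had log2 signals of 9.66, 9.83 and 9.71 on the controls and 9.09, 9.38 and 9.45 on the transgenic arrays. Each transgenic array lay below each control. The difference was -0.43 (SE 0.119, 95% interval -0.72 to -0.14), a fold of 0.745, and it did not pass (limma adjusted p = 0.0762). Cdx1 (row 10459153, chromosome 18), its paralog in crypts and lower villi, had 8.52, 8.71 and 8.44 on the controls and 8.43, 8.14 and 8.19 on the transgenic arrays. Its groups were separated by only the small step between transgenic replicate 1 and control replicate 3, and the difference of -0.30 (SE 0.118) did not pass (limma adjusted p = 0.178). Without transgenic replicate 1 both fell, Cdx2 by 0.32 (limma adjusted p = 0.029) and Cdx1 by 0.39 (limma adjusted p = 0.0191). Cdx2 was lowest on transgenic replicate 1, and Cdx1 on transgenic replicates 2 and 3. Permuting the 6 arrays exactly (two-sided) gave p = 0.1 for both genes, the smallest possible with 3 against 3. Any gene whose groups do not overlap gets this value, and Gata4 had it too, so it adds nothing to the separation already given.

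The HNF4 receptors were low on 1 transgenic array, while on the others Hnf4a lay above the controls and Hnf4g near them. Hnf4a (row 10478389, chromosome 2) had log2 signals of 11.87, 11.92 and 11.88 on the controls, 11.00 on transgenic replicate 1, and 12.12 and 12.10 on the other transgenic arrays. Transgenic replicate 1 lay below and replicates 2 and 3 above the controls, so the mean difference of -0.15 had a 95% interval of -0.89 to 0.60 and did not pass (limma adjusted p = 0.84). Without replicate 1 it was 0.22 and did not pass either (limma adjusted p = 0.0717). Hnf4g (row 10490755, chromosome 3), its paralog in enterocytes, had 11.81, 11.67 and 11.76 on the controls, 10.33 on transgenic replicate 1, and 11.79 and 11.76 on the others. On that array Hnf4g was 1.42 below the control mean, a distance exceeded by 7.99% of all genes there. The mean difference was -0.45 (95% interval -1.42 to 0.51, limma adjusted p = 0.572). Without transgenic replicate 1 it was 0.03, with a 95% interval of -0.17 to 0.22 (limma adjusted p = 0.885).

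The GATA factors lay close to the controls on transgenic replicates 2 and 3. Gata4 (row 10420747, chromosome 14), the factor of proximal intestine, had log2 signals of 9.85, 9.89 and 9.85 on the controls and 9.69, 9.84 and 9.84 on the transgenic arrays. All 3 transgenic values lay below the controls, 2 of them by very little. The difference was -0.07 (95% interval -0.27 to 0.12, limma adjusted p = 0.672), and -0.02 without replicate 1 (95% interval -0.20 to 0.16, limma adjusted p = 0.904). Gata6 (row 10453857, chromosome 18), which is expressed along the whole intestine, had 10.92, 10.88 and 10.84 on the controls, 10.20 on transgenic replicate 1, and 10.92 and 10.96 on the others. Transgenic replicate 1 alone was low, and the mean difference of -0.19 did not pass (95% interval -0.70 to 0.33, limma adjusted p = 0.678). Without that array it was 0.06 (95% interval -0.13 to 0.25, limma adjusted p = 0.708).

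Isx differed in direction between the transgenic arrays. Isx (row 10572865, chromosome 8), a repressor in a feedback loop with vitamin A, had log2 signals of 10.55, 10.41 and 10.58 on the controls, 9.38 on transgenic replicate 1, and 11.04 and 10.91 on the others. The mean difference was -0.07 with a 95% interval of -1.14 to 0.99 (limma adjusted p = 0.948). Without transgenic replicate 1 Isx rose by 0.46 (SE 0.0931, limma adjusted p = 0.00647), a fold of 1.37, which was the smallest adjusted p of the 9 members in that fit. On replicate 1 it was 1.14 below the control mean, a distance exceeded by 12.1% of genes.

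Elf3 and Nr5a2 did not pass with or without transgenic replicate 1. Elf3 (row 10358027, chromosome 1) had log2 signals of 10.47, 10.63 and 10.70 on the controls, 10.43 on transgenic replicate 1, and 10.85 and 10.90 on the others. The groups overlapped, and the difference of 0.13 did not pass with all arrays (95% interval -0.24 to 0.49, limma adjusted p = 0.695), nor did the 0.28 found without replicate 1 (limma adjusted p = 0.0644). Nr5a2 (row 10358210, chromosome 1) had 8.98, 9.04 and 9.16 on the controls and 9.26, 9.27 and 9.14 on the transgenic arrays. It was the only one of the 9 members above its control mean on transgenic replicate 1, by 0.20. Its difference of 0.16 did not pass (95% interval -0.05 to 0.38, limma adjusted p = 0.332), nor did the 0.14 without that array (limma adjusted p = 0.339).

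**Figure D2:**
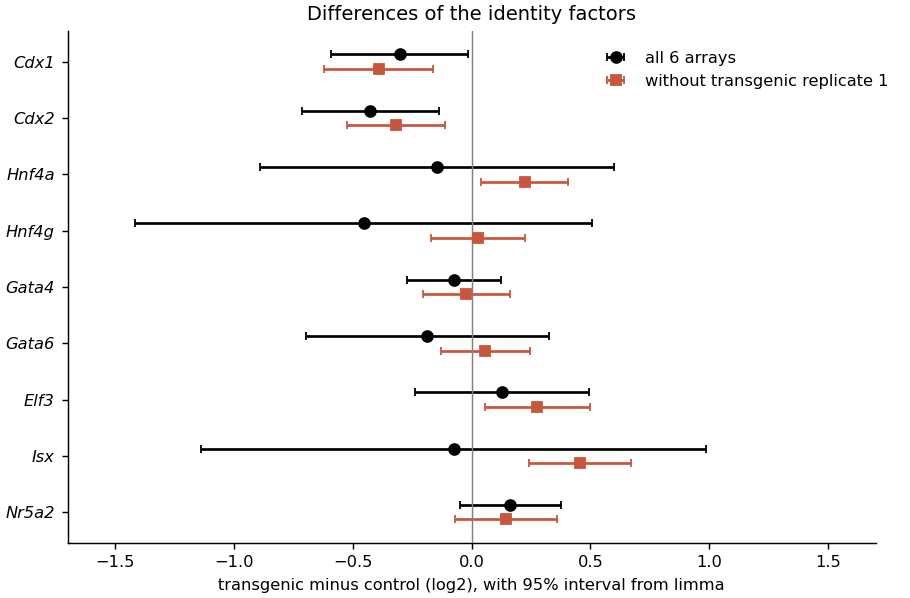
Difference of each identity factor, transgenic minus control, in log2 units (x axis), with 95% intervals from limma, for all 6 arrays (circles) and without transgenic replicate 1 (squares). The widest interval is that of Isx (-1.14 to 0.99), and leaving out transgenic replicate 1 narrows those of Hnf4a, Hnf4g, Gata6 and Isx.

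Within each pair of paralogs the array with the largest shift in ratio was transgenic replicate 1. The log2 ratio of Hnf4a to Hnf4g, relative to its control mean, was -0.09, 0.11 and -0.02 on the controls and 0.53, 0.19 and 0.20 on the transgenic arrays, so Hnf4g lost more or gained less than Hnf4a on all 3. The mean shift was 0.31, with an exact two-sided permutation p of 0.1, the smallest that 3 against 3 arrays allow, and 0.3 after adjustment over 3 pairs. For Cdx1 over Cdx2 the transgenic arrays had 0.51, -0.06 and -0.09 (exact permutation p = 0.8), and for Gata4 over Gata6 they had 0.50, -0.06 and -0.10 (exact permutation p = 1).

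The genes with the profile most like each member were sought by Pearson correlation over the 6 arrays. For Hnf4a they were Car13 and Surf4 (both 0.999), for Hnf4g Cfb and Hsd17b6 (1.00 and 0.999), for Gata6 Susd6 and Sema4a (0.999 and 0.998), and for Isx Tbc1d23 and Cpeb2 (0.999 and 0.998). Cdx2 had Alkbh7 and Amdhd2 (0.997 and 0.996) and Cdx1 had Nfatc1 and Mrpl10 (0.998 and 0.996). Gata4 had Arpc1a and Anapc2 (1.00 and 0.999), Elf3 had Kcnj12 and Tmem214 (0.99 and 0.982), and Nr5a2 had Slco1b2 and Ttc23 (0.99 and 0.987). These coefficients describe 6 arrays, of which transgenic replicate 1 is the farthest out. The number of genes correlated above 0.95 ran from 15 for Nr5a2 and 25 for Elf3 to 692 for Gata4 and 754 for Hnf4g.

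Among other transcription factors of the epithelium, 4 passed the test, namely Nr1h4, Zfpm1, Rxra and Nr2f6. Of 30 listed, 27 were measured, and 1 rose and 3 fell, against 6.04% and 5.84% of all genes in these directions. Nr1h4, the bile acid receptor FXR, had log2 signals of 8.57, 8.43 and 8.80 on the controls and 10.05, 10.06 and 9.96 on the transgenic arrays, and rose by 1.42 (SE 0.114, limma adjusted p = 0.00196). Zfpm1 (FOG1), a cofactor of GATA proteins, had 9.08, 9.16 and 9.01 on the controls and 7.53, 7.78 and 7.70 on the transgenic arrays, and fell by 1.41 (SE 0.0971, limma adjusted p = 0.00158). For both genes the groups were far apart and transgenic replicate 1 lay with the others, and both calls remained with any array left out (adjusted p up to 0.0211 and 0.0174). Gata5, the third GATA gene of the endoderm, which was named after its values were seen, had 10.50, 10.58 and 10.33 on the controls and 8.28, 9.53 and 9.57 on the transgenic arrays. All its transgenic values lay below the controls, and the difference of -1.34 did not pass (limma adjusted p = 0.0635), though it fell by 0.92 without replicate 1 (adjusted p = 2.44e-04).

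The other calls in this list were Rxra and Nr2f6. Rxra, the common partner of many nuclear receptors, had log2 signals of 9.23, 9.21 and 9.21 on the controls and 7.06, 8.03 and 8.06 on the transgenic arrays, and fell by 1.50 (limma adjusted p = 0.0211). Nr2f6, an orphan receptor of the COUP-TF family, fell by 0.94 (limma adjusted p = 0.0206). The Rxra call was lost without any 1 control (adjusted p up to 0.0937), and that of Nr2f6 when control replicate 1, control replicate 2 or transgenic replicate 3 was left out (up to 0.0914). Klf5, a factor of crypt proliferation, had a difference of 0.27 (adjusted p = 0.152), and it rose by 0.36 without transgenic replicate 1 (adjusted p = 0.0128). Klf4 and Creb3l3, factors of differentiated cells, followed the HNF4 pattern, with 8.43 and 9.35 on transgenic replicate 1 against 10.03 to 10.37 and 10.78 to 10.88 on the controls. Sox9, a factor of crypts, was the reverse, at 10.40 on transgenic replicate 1 but 8.04 and 7.85 on replicates 2 and 3, against control values of 8.49 to 8.69. Leaving out replicate 1, 5 of the 27 rose and 9 fell, against 14% and 14.5% of all genes. The risers were Nr1h4, Prdm1, Smad4, Tcf7l2 and Klf5, and the fallers included Rxra, Zfpm1, Gata5 and Vdr, the vitamin D receptor.

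**Figure D3:**
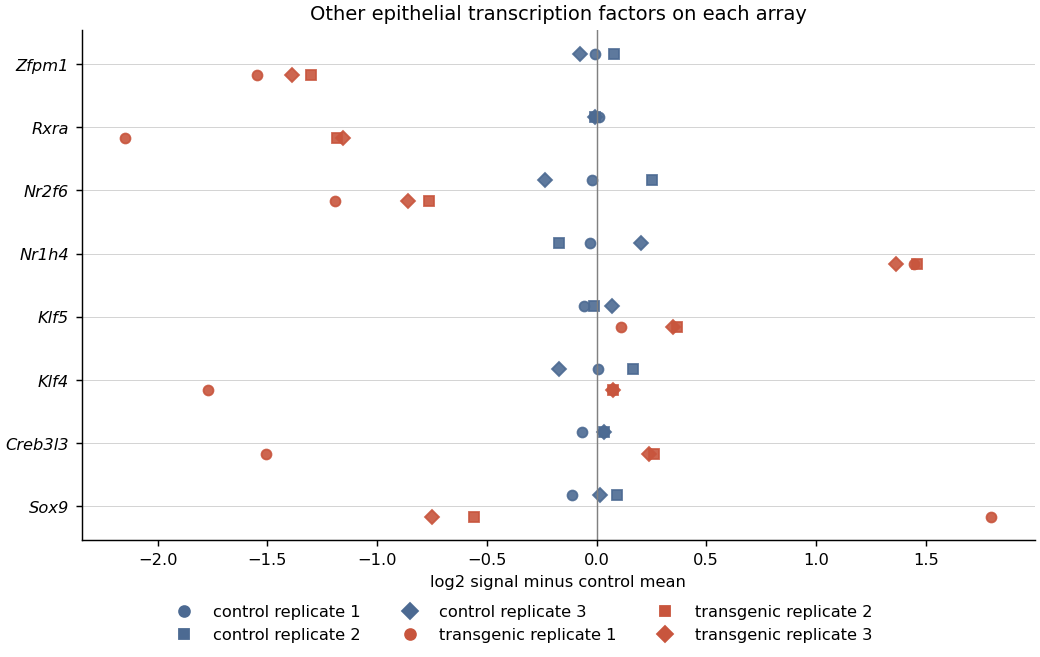
Log2 signal minus the control mean (x axis) of 8 other epithelial transcription factors on each of the 6 arrays. Zfpm1, Rxra and Nr2f6 are lower and Nr1h4 higher on all transgenic arrays, while Klf4 and Creb3l3 are low and Sox9 is high on transgenic replicate 1 alone.

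Genes reported to depend on these factors were then examined by lists chosen from general knowledge and not checked against a source. Some genes are shared between lists. The lists were chosen with earlier results of these data known, so their counts are descriptions and not independent tests. Among all genes 11.9% were called with all arrays, 25.0% had an unadjusted p under 0.05, and 9.91% were called with trended and robust variances. Of 15 reported CDX2 targets 0 were called with limma (2 at an unadjusted p under 0.05, and 0 called with trended and robust variances), and the list median was -0.39 against -0.04 for all genes. That median was -0.09 when transgenic replicate 1 was left out, and by array it was -1.28, 0.03 and -0.16 on transgenic replicates 1, 2 and 3. Sis, the sucrase-isomaltase of the brush border and a classical CDX2 target, had log2 signals of 12.67, 12.56 and 12.70 on the controls and 8.97, 11.56 and 11.39 on the transgenic arrays. It lay lower on all transgenic arrays and differed by -2.00 (limma adjusted p = 0.126), and fell by 1.17 without transgenic replicate 1 (adjusted p = 6.17e-05). Cdh17, the intestinal cadherin and another CDX2 target, differed by 0.01 (limma adjusted p = 0.96), with all 6 arrays between 12.13 and 12.48. Lct, the lactase gene, had 12.42, 12.41 and 12.42 on the controls and 8.16, 12.16 and 12.15 on the transgenic arrays, and its difference of -1.60 did not pass (limma adjusted p = 0.449). Without transgenic replicate 1, 2 of the 15 rose, Isx and Gucy2c, and 5 fell, Sis, Cdx1, Tff3, Vil1 and Lct, against 14% and 14.5% of all genes.

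**Figure D4:**
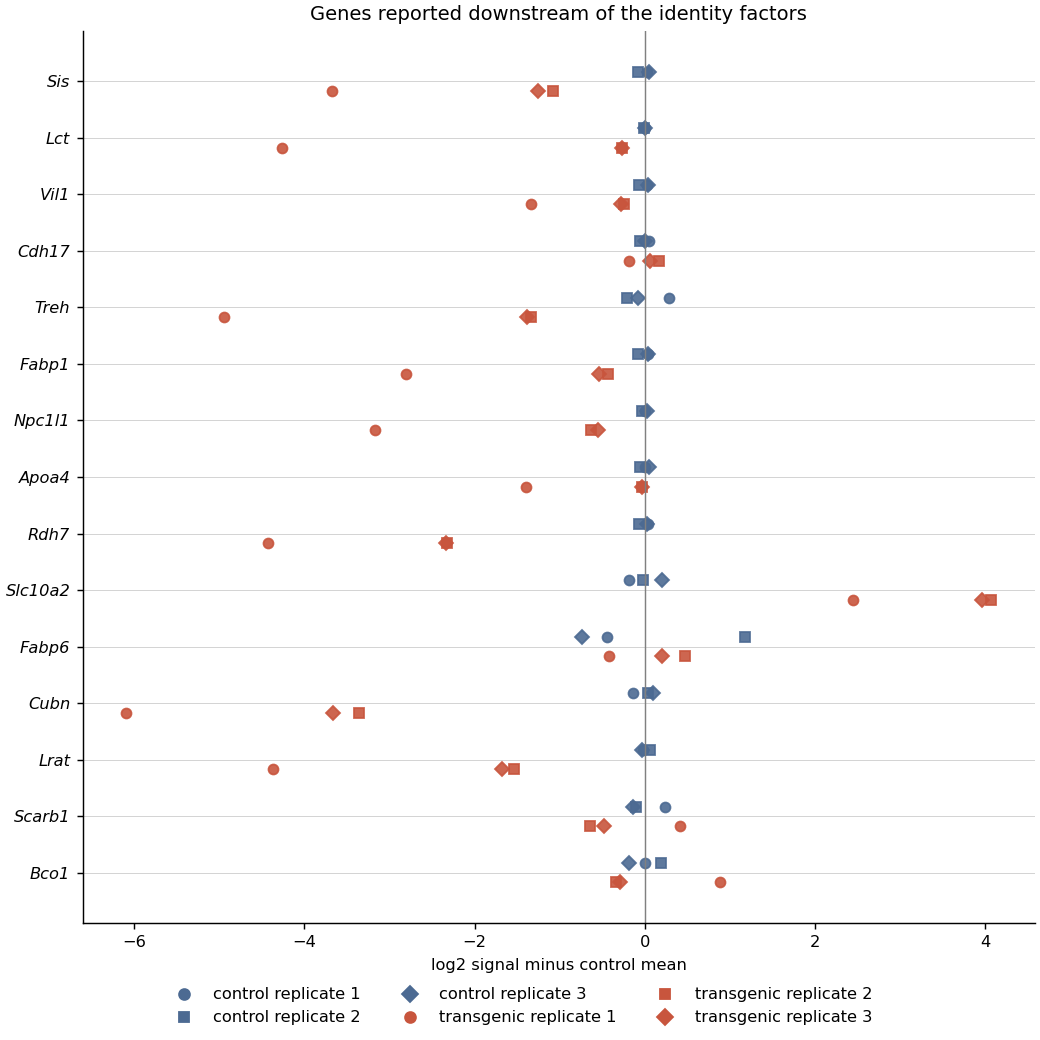
Log2 signal minus the control mean (x axis) of 15 genes reported downstream of the identity factors, on each of the 6 arrays. Most lie far lower on transgenic replicate 1 than on the other transgenic arrays, Slc10a2 is higher on all 3, and Scarb1 and Bco1 lie above the control mean on transgenic replicate 1 and below it on the others.

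The start regions of Sis, Lct and Slc10a2 are shown because Sis and Lct are brush border genes reported to depend on CDX2 or GATA4 and Slc10a2 is the ileal gene whose rise passed with all arrays. The Sis window (chr3:72967864-72968113, minus strand) held 1 CDX and 1 HNF1 match, the Lct window (chr1:128328319-128328568, minus strand) 1 CDX and 2 GATA matches, and the Slc10a2 window (chr8:5105288-5105537, minus strand) 1 CDX and 1 HNF1 match and no AGATAA. Capitals mark the matches to the motifs named above, on either strand.
Sis: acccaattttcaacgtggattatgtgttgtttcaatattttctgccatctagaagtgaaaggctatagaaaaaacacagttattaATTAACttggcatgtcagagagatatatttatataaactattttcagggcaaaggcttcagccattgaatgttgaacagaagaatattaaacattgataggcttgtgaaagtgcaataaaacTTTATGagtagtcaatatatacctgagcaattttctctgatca
Lct: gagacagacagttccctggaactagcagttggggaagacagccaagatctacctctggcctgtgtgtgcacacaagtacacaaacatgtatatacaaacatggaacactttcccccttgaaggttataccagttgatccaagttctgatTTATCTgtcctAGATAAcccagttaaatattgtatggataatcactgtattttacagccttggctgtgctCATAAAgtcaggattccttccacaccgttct
Slc10a2: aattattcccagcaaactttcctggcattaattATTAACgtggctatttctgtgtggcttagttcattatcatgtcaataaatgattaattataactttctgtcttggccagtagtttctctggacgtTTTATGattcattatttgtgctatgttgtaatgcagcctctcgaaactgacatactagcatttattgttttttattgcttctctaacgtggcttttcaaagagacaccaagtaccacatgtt

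Reported HNF4 targets, mostly genes of fat absorption, were low on transgenic replicate 1. Of 18 listed, 16 were measured and limma called 0 (1 at an unadjusted p under 0.05, and 0 called with trended and robust variances), with a median of -0.58, which was -0.06 without transgenic replicate 1. The list median relative to the control mean was -1.75 on transgenic replicate 1, -0.05 on replicate 2 and -0.06 on replicate 3, and 15 of the 16 had their lowest value on replicate 1. Hnf4a and Hnf4g were also lowest on that array, and a link between them and the list was not tested. Other lists had 13 of 15 CDX2 targets, 10 of 12 jejunal genes and 9 of 11 lymphocyte markers lowest there. The counts were 4 of 8 for epithelial markers and 1 of 10 for crypt markers, and the share over all genes was not counted. Apoa4, the chylomicron apolipoprotein, had log2 signals of 13.02, 12.96 and 13.07 on the controls and 11.63, 12.98 and 12.99 on the transgenic arrays (difference -0.49, limma adjusted p = 0.512). Without replicate 1, 6 of the 16 fell and 0 rose, against 14.5% and 14% of all genes. Among those that fell were Npc1l1, the cholesterol uptake protein, by 0.59, and Fabp1, a fatty acid binding protein, by 0.48.

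Among genes listed as jejunal and kept on by GATA4, 1 passed with all arrays. Membership of this list was not checked against a source. All 12 listed were measured, and the gene that fell was Rdh7, a retinol dehydrogenase, where 5.84% of all genes were called lower. Its log2 signals were 10.15, 10.05 and 10.14 on the controls and 5.69, 7.80 and 7.78 on the transgenic arrays. It fell by 3.03 (SE 0.568, limma adjusted p = 0.023), and dropping any 1 control ended the call (up to 0.0992). The list median was -1.51, and for 9 of the 12 all transgenic arrays lay below all controls, against 18.2% of all genes. Without transgenic replicate 1, 10 of the 12 fell, with a median of -0.53, against 14.5% of all genes called lower. These included Slc46a1, the folate transporter of the proximal intestine, by 0.92, and Lct by 0.26, but not Apoa4 (-0.03, adjusted p = 0.846).

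Genes listed as ileal and restrained by GATA4 moved in both directions. The list was not checked against a source, and several of its genes had strong signal in the control jejunum. Control means were 11.77 for Cubn, 12.22 for Mep1b and 10.64 for Slc51a, and 5.98 for Slc10a2, 5.26 for Fabp6 and 7.14 for Fgf15. Of 8 measured, Slc10a2 rose and Cubn fell, against 6.04% and 5.84% of all genes. Slc10a2, the ileal bile acid transporter, had log2 signals of 5.80, 5.96 and 6.19 on the controls and 8.43, 10.06 and 9.95 on the transgenic arrays, a rise of 3.49 (SE 0.439, limma adjusted p = 0.00677) that remained called with each array left out in turn (adjusted p up to 0.0445). Fabp6, the ileal bile acid binding protein, did not rise with it, with 4.82, 6.44 and 4.52 on the controls and 4.83, 5.73 and 5.46 on the transgenic arrays (difference 0.08, limma adjusted p = 0.952). Cubn, the cubilin receptor for bound cobalamin, had 11.64, 11.81 and 11.88 on the controls and 5.68, 8.42 and 8.12 on the transgenic arrays. It fell by 4.37 (limma adjusted p = 0.0146), and dropping any 1 control ended the call (up to 0.074). Without transgenic replicate 1, Slc10a2 and Slc51b rose and Cubn and Slc51a fell, against 14% and 14.5% of all genes. The differences were -1.12 for Slc51a and 1.14 for Slc51b, which encode partner subunits of a basolateral bile acid transporter.

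Among genes of retinoid and carotenoid handling, which include the known ISX targets Scarb1 and Bco1, none passed with all arrays. Of 7 measured genes of the ISX and retinoid list limma called 0 (1 at an unadjusted p under 0.05, and 0 called with trended and robust variances). Scarb1, the lipid and carotenoid receptor, had log2 signals of 7.36, 7.01 and 6.98 on the controls, 7.53 on transgenic replicate 1, where Isx was low, and 6.48 and 6.64 on replicates 2 and 3, where Isx was high. Bco1, the carotene-cleaving enzyme, had 6.71, 6.90 and 6.53, then 7.59, and then 6.37 and 6.42 on the same arrays. The list median of crypt and proliferation markers had the same signs, at 0.63, -0.81 and -0.83 relative to the control mean on transgenic replicates 1, 2 and 3. The listed genes were split on replicate 1, with Mki67 at 0.65 and Top2a at 0.30 but Olfm4 at -3.08 and Ascl2 at -0.90. The part of crypt and proliferating cells in the Scarb1 and Bco1 values was not tested. Neither Scarb1 nor Bco1 passed with all arrays, and without replicate 1 Scarb1 fell by 0.56 (adjusted p = 0.0113) while Bco1 differed by -0.32 (adjusted p = 0.0798). Lrat, which esterifies retinol, differed by -2.53 (limma adjusted p = 0.0882) and fell by 1.61 without replicate 1 (adjusted p = 1.15e-05). Without replicate 1, 4 of the 7 rose, Abca1 by 1.47, Cd36 by 0.96, Isx by 0.46 and Rbp2 by 0.38, and Lrat and Scarb1 fell, against 14% and 14.5% of all genes. ABCA1 exports cholesterol, CD36 takes up fatty acids and RBP2 binds retinol in enterocytes.

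Of 10 measured genes reported downstream of NR5A2 or ELF3, 3 rose and 0 fell, against 6.04% and 5.84% of all genes. Because the list was chosen with earlier results of these data known, this count is no test of these factors. Tgfbr2, the TGF-beta receptor subunit known as an ELF3 target in gut epithelium, had log2 signals of 7.15, 7.28 and 6.92 on the controls and 9.62, 8.74 and 8.62 on the transgenic arrays, a rise of 1.88 (SE 0.277, limma adjusted p = 0.0108) that lost its call without any 1 control (up to 0.0592). The others were Sprr1a, a cornified envelope gene, at 2.30 (limma adjusted p = 0.0017), and Lcn2 at 5.84 (limma adjusted p = 0.00114). The Lcn2 difference was the largest of all genes. Ccne1, cyclin E1 and a known NR5A2 target in crypts, differed by -0.65 (limma adjusted p = 0.0891) and fell by 0.87 without transgenic replicate 1. Elf3 itself differed by 0.13 and was not called. The NR5A2 targets of local steroid synthesis, Cyp11a1, Cyp11b1 and Hsd3b1, differed by -0.11, 0.18 and 0.04, and none passed.

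Stomach and squamous genes, which CDX2 keeps off in the intestine, did not pass. Of 18 listed, 17 were measured, and limma called 0 with and without transgenic replicate 1 (0 at an unadjusted p under 0.05 in both fits, and 0 called with trended and robust variances). The list median was -0.06, and the array medians of the list were 5.79 to 5.89 on the controls and 5.62 to 5.88 on the transgenic arrays. The smallest p was that of Tff2, a gastric trefoil peptide, with a difference of -0.25 (limma adjusted p = 0.327). Krt14 and Gkn3 differed by -0.13 and -0.16, and Cldn18 by 0.27. Sox2, which opposes CDX2 in foregut, had 4.51 to 4.70 on all 6 arrays.

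Other cell type lists moved with some of these results. Among all genes 6.04% were called higher and 5.84% lower with all arrays, and 14% and 14.5% without transgenic replicate 1. Of 11 lymphocyte markers 1 fell, Cd8b1 by 0.55 (limma adjusted p = 0.0101, lost without any 1 control, up to 0.0686). For 9 of the 11 all transgenic arrays lay below all controls, against 18.2% of all genes. The list median relative to the control mean was -2.30 on transgenic replicate 1 and -0.60 and -0.61 on the others. Itgae, Ptprc and Jchain differed by -1.30, -1.18 and -0.83 and did not pass. Of the 10 crypt and proliferation markers measured, Olfm4 fell by 3.37 and Ascl2 by 1.03 (the Ascl2 call ended when control replicate 2 or 3 was dropped, with an adjusted p of up to 0.0733), and without replicate 1, 8 fell, Mki67 by 0.97 and Top2a by 0.99 among them. Of 9 macrophage and neutrophil markers 0 were called (3 at an unadjusted p under 0.05, Tyrobp, Itgam and Fcer1g, and 0 called with trended and robust variances), and without replicate 1 Itgam rose and Tyrobp, Fcer1g and Lyz2 fell. Of 15 stromal, muscle, endothelial and nerve markers 1 fell, Vim by 0.89 (limma adjusted p = 0.0227, up to 0.101 and not called when any 1 control or transgenic replicate 2 was dropped), and of 8 epithelial markers 1 rose, Cdh1 by 0.34 (limma adjusted p = 0.0415, up to 0.161 and not called when any 1 array other than transgenic replicate 1 was dropped). Of 7 pancreas and liver markers 0 were called (0 at an unadjusted p under 0.05, and 0 with trended and robust variances). The part of these shifts in the values of the identity factors was not tested.

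**Figure D5:**
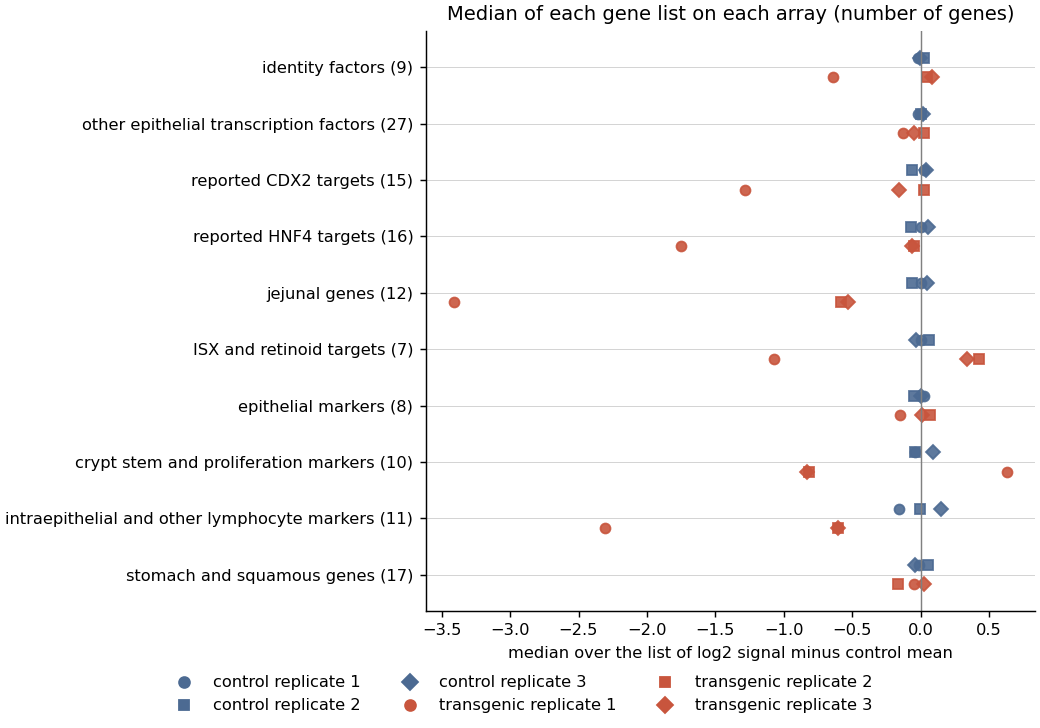
Median over each list of log2 signal minus the control mean (x axis), for 10 gene lists with their number of genes, on each of the 6 arrays. The identity factors lie at -0.64 on transgenic replicate 1 and near 0 on the others, and the jejunal genes are lower on all 3 transgenic arrays. The median of the crypt markers lies above 0 on transgenic replicate 1, though Olfm4 and Ascl2 were lower there, and below 0 on replicates 2 and 3.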

How the data were processed

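RNA of 6 jejunal epithelial preparations, 250 ng each, was measured on Affymetrix Gene 1.0ST arrays. The deposited values are log2 signals, and the submitters' processing notes name RMA (background correction, quantile normalization and summary to 1 value per row) and Partek 6.5. The sources used here give no settings for either. RMA gives all arrays like distributions, which hides any shift in RNA content per cell. Columns were mapped to 3 control and 3 transgenic samples by their titles. The series text calls them animals. Of 35399 rows, 21789 had 1 gene symbol in the platform annotation, and the brightest row per gene was kept (19938 genes, no filter on dim genes).

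Groups were compared with limma 3.58.1 in R 4.3.3 (lmFit, eBayes, Benjamini-Hochberg over all genes), tested on simulated data, and all adjusted p-values come from it. The simulation drew independent genes and gave both groups the control SDs. In the data the median ratio of transgenic to control SD was 2.06, so the simulation did not cover this unequal spread. Exact permutation tests used scipy 1.17.1. Named were all members, the 4 genes with the smallest p per list and a set fixed by name (Klf4, Sox9, Lct and others); others, such as Gata5, Gucy2c, Cyp11a1 or Sox2, were named after their values were seen. Members and lists were chosen with earlier results of these data known. Alternatives were quantile normalization, equal medians, a filter on dim genes, a mean over rows, all rows, a replicate block, robust variances, array weights, each array left out and a threshold of 0.1.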

Additional observations from a re-analysis of the deposited data

How the results depend on the processing

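With 3 arrays per group the widest member interval, that of Isx, spans -1.14 to 0.99, so changes of moderate size in Isx, Hnf4a and Hnf4g cannot be seen. The number of identity factors called was 0 with all arrays and stayed 0 under quantile normalization, equal medians, the filter on dim genes, the mean of rows, all rows tested, the replicate block and robust variances. It was 2 with array weights, 1 at a threshold of 0.1, and 0 to 3 with an array left out, with 3 only without transgenic replicate 1. The count over all genes was 5770 with array weights, 733 with the replicate block and 683 to 5700 with an array left out. The labels do not say whether same-numbered samples belong together. Same-numbered arrays did not deviate together (correlations -0.07, -0.17 and -0.12), which with 3 arrays per group cannot settle a pairing. The block result is given here only.

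Differences that changed sign with array weights were those of Hnf4a (0.19), Gata6 (0.00099), Isx (0.40), Klf4 (0.0022), Creb3l3 (0.20), Sox9 (-0.45), Bco1 (-0.26) and Alb (-0.042), none of them past the threshold. With an array left out the differences ranged from -0.34 to 0.22 for Hnf4a, -0.70 to 0.028 for Hnf4g, -0.32 to 0.059 for Gata6, -0.37 to 0.46 for Isx, -0.85 to 0.075 for Klf4, -0.65 to 0.62 for Sox9, -0.63 to 0.25 for Creb3l3, -0.062 to 0.38 for Rbp2, -0.061 to 0.12 for Cdh17, -0.060 to 0.12 for Alb, -0.29 to 0.67 for Fabp6 and -0.32 to 0.29 for Bco1. The cause was not tested.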
